A study of Danio rerio with 4 samples.

Results

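Interleukin-6 family cytokines, leptin b and the Stat3 pathway were examined in injured zebrafish cardiac ventricles with and without ccn2a. The group comprised 10 genes, chosen by name and found in the deposited table by an exact match of the gene symbol, of 19875 genes in all. They were the cytokine genes il11a, il11b and clcf1, the cytokine partner gene crlf1a, the leptin gene lepb, the receptor genes il6st and il11ra, the transcription factor gene stat3, and the feedback genes socs3a and socs3b. Messenger RNA came from ventricles 4 days after injury, dissected free of atrium and bulbus arteriosus, and was sequenced as 2 libraries from ccn2a-/- fish and 2 from wild-type fish. The titles write the time as 4 dpci, and every library came from injured tissue, so no uninjured level is given here. The labels give neither strain, age, sex nor the lesion in ccn2a, and do not say whether a library was 1 heart or a pool. The p-values therefore measure only the spread between these libraries, which may be technical. In bulk tissue, fewer cells of a type and less RNA per cell cannot be told apart.

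Cytokines of this family bind a specific receptor chain, such as Il11ra for interleukin 11, which then engages the shared chain Gp130, encoded by il6st. Gp130 carries Janus kinases that phosphorylate Stat3, and phosphorylated Stat3 enters the nucleus and activates target genes. Among its targets are the socs3 genes, whose products block the receptor and the kinases and so close a feedback loop. Leptin uses its own receptor but the same kinases and Stat3. In the zebrafish heart, il11 paralogs and lepb are known as genes induced by injury, and Stat3 activity in cardiomyocytes is known to be needed for regeneration.

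Values are normalised read counts, that is, read counts divided by a size factor of the library and rounded by the authors. Approximate depth was between 17.2 and 21.5 M reads per library. The ccn2a transcript, listed under its older symbol ctgfa, was at 3070 and 1473 in mutant replicates 1 and 2 versus 4737 and 4411 in the wild types, so it was detected in the mutants. Its adjusted p was 0.381 (limma). Mutant replicate 1 and wild-type replicate 2 stood apart: 1262 and 721 of the 16730 tested genes lay more than 2-fold below their own mean there, against 237 in mutant replicate 2 and 111 in wild-type replicate 1. The heart label fitted the cardiac myosin light chain gene myl7, at 139544 or more in each library. That gene does not tell ventricle from atrium. Of 2 genes listed here under atrium, the myosin gene myh6 was at 3276 to 5854 and the natriuretic peptide gene nppa at 36181 to 103223. Neither value measures how much atrium was present, and nppa was not shown here to be specific to atrium.

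In the mutant ventricles, stat3 and the receptor gene il11ra were at lower values in both libraries than in either wild type, il11b was at slightly higher values, and the other 7 genes overlapped between the genotypes. None of these differences passed the test. All 10 genes had a mean of 10 or more and were tested. No gene of the 10 passed an adjusted p of 0.05, and over all tested genes 0 passed, or 0.0% (limma-trend, Benjamini-Hochberg adjustment over 16730 genes). At an unadjusted p under 0.05 there were 0 of the 10 genes, against 12.8% of all tested genes, made up of 5.89% higher and 6.93% lower in the mutant. The gene stat3 was under that unadjusted level in some alternatives. Its unadjusted p (limma) was 0.0249 with replicate number as a block, a pairing the labels do not give, and 0.0498 under quantile normalisation. Its adjusted p there was 0.268 and 0.371 (limma). Of all tested genes, those settings put 1205 and 1088 under that level on the higher side, and 1450 and 1158 on the lower. Without mutant replicate 2, which leaves mutant replicate 1 alone, the log2 fold change of stat3 was -1.25. Over all alternatives its adjusted p ran from 0.236 to 0.868. The gene il11a was under that level when either wild-type replicate was left out, in opposite directions. Limma voom on approximate reads also called 0 at the adjusted threshold. The 2 genotypes did not overlap at 3 of the 10 genes, 2 lower and 1 higher in the mutant, where 52.3% of all tested genes did not overlap, 25.7% lower and 26.6% higher. Log2 fold changes were negative for 6 genes and positive for 4, with a median of -0.15, beside 6.28e-05 over all tested genes. An exact 2-sided permutation test of 2 libraries against 2 cannot give a p below 0.33, so no single gene could pass one.

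**Figure D1:**
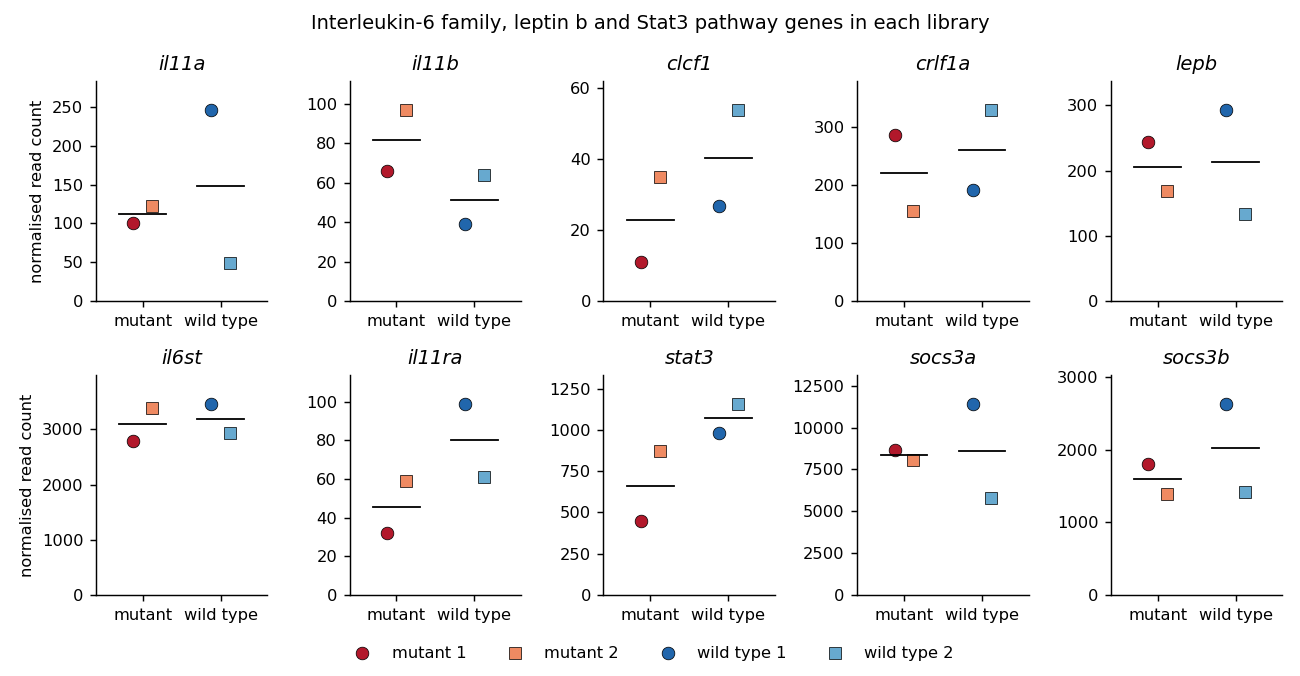
Normalised read count (y axis, from 0, its scale set for each gene) of the 10 genes in each library, by genotype (x axis). Points are single libraries and the black line is the mean of each genotype (n = 2). The wild-type replicates lie on both sides of the mutants for il11a, lepb and socs3a, while both mutants lie below both wild types for stat3 and il11ra.

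Among the ligands, il11a had the widest spread of the 10 genes. The gene (ENSDARG00000037859, chromosome 16, 12611362 to 12617155, coordinates here being those of the deposited table, whose build is unsettled) encodes interleukin 11a, a secreted ligand of Il11ra. It was at 101 and 123 in mutant replicates 1 and 2 versus 246 and 49 in wild-type replicates 1 and 2. The mutants lay close together between the wild types, which differed 5.02-fold. That gap exceeded counting error, whose exact 95% interval for the ratio of those libraries ran from 3.78 to 6.68, and 1.18% of tested genes had a wider gap between the wild types. The genotype means were 112 ± 15.6 and 148 ± 139 (SD, n = 2 each). On the log2 scale the mutants were 0.02 higher (SE 0.725, adjusted p = 0.994), with a 95% interval from -1.76 to 1.79. It was -1.13 without wild-type replicate 2 and 1.17 without wild-type replicate 1, so the direction of il11a rested on which wild-type library was used.

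The paralog il11b followed another order. The gene (ENSDARG00000058557, chromosome 19, 10429810 to 10432134) was at 66 and 97 in the mutants and at 39 and 64 in wild type. Both mutants lay above both wild types, but the lower mutant and the higher wild type differed by only 2 normalised counts. The log2 fold change was 0.67 (SE 0.418, adjusted p = 0.464), and it stayed positive without each library in turn, from 0.32 to 1.02. Approximate reads per library were 37 to 92, so counting error alone is wide here. The ratio of il11a to il11b counts was 1.53 and 1.27 in the mutants and 6.31 and 0.766 in wild type, so the balance of the paralogs differed most between the wild types.

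Leptin b, a ligand of the leptin receptor, also had wild-type replicate 1 highest and wild-type replicate 2 lowest. The gene lepb (ENSDARG00000045548, chromosome 4, 19031768 to 19033805) was at 243 and 169 in the mutants and at 293 and 133 in wild type. The wild types again enclosed the mutants, at a 2.2-fold gap that 7.55% of tested genes exceeded. On the log2 scale lepb differed by 0.04 (SE 0.431, adjusted p = 0.974), with an interval from -1.02 to 1.09. It was -0.53 without wild-type replicate 2 and 0.60 without wild-type replicate 1.

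The products of clcf1 and crlf1a are known in mammals to form a complex that signals through the ciliary neurotrophic factor receptor and Gp130. The cytokine gene clcf1 (ENSDARG00000076140, chromosome 14, 22022441 to 22038396) was at 11 and 35 in the mutants and at 27 and 54 in wild type, and the groups overlapped. Its log2 fold change of -0.92 (SE 0.686, adjusted p = 0.525) was -0.12 without mutant replicate 1, which held about 10 reads, and -1.71 without mutant replicate 2. It was -1.40 when wild-type replicate 1 was left out and -0.43 when wild-type replicate 2 was. The clcf1 gene lies inside ssrp1a on the opposite strand, and ssrp1a was at 333 and 331 against 490 and 1054. Because no source used here says whether counting used the strand, reads of these genes cannot be told apart with certainty.

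The partner gene crlf1a (ENSDARG00000024365, chromosome 2, 41876595 to 41920632) was at 286 and 156 in the mutants and at 192 and 330 in wild type. Each genotype held a high and a low library. The log2 fold change was -0.25 (SE 0.407, adjusted p = 0.773), and it was 0.18 without mutant replicate 2 and 0.14 when wild-type replicate 2 was left out. The ratio of crlf1a to clcf1 counts was 26.0 and 4.46 in the mutants and 7.11 and 6.11 in wild type, with mutant replicate 1 apart from the other libraries.

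Of the receptors, the shared chain varied least among the 10 genes. The gene il6st (ENSDARG00000104693, chromosome 10, 5788620 to 5821584) was at 2793 and 3384 in the mutants and at 3466 and 2925 in wild type. The genotypes overlapped, at means of 3089 ± 418 and 3196 ± 383 (SD, n = 2 each), and the log2 fold change was -0.05 (SE 0.208, adjusted p = 0.92), with a 95% interval from -0.56 to 0.46. Of the 10 intervals it was the narrowest.

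The specific chain il11ra, also on chromosome 10 (ENSDARG00000026736, 13305610 to 13396720), was at 32 and 59 in the mutants and at 99 and 61 in wild type. Both mutants lay below both wild types, although mutant replicate 2 and wild-type replicate 2 differed by 2 normalised counts. Its log2 fold change was -0.82 (SE 0.465, adjusted p = 0.43), a level 1.77-fold lower, with an interval from -1.96 to 0.31. Leaving out mutant replicate 1 gave -0.39 and leaving out wild-type replicate 1 gave -0.48, while leaving out the second replicate of either genotype gave -1.25 for the mutant and -1.17 for wild type. The ratio of il11ra to il6st counts was 0.0115 and 0.0174 in the mutants and 0.0286 and 0.0209 in wild type, lower in both mutants.

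The gene stat3 had the smallest p of the 10. Its product is the transcription factor through which Gp130 and leptin receptors act. The gene (ENSDARG00000022712, chromosome 3, 17030665 to 17107445) was at 446 and 871 in the mutants and at 980 and 1159 in wild type. Both mutants lay below both wild types, with mutant replicate 1 far below the rest and mutant replicate 2 close to wild-type replicate 1. The genotype means were 659 ± 301 and 1070 ± 127 (SD, n = 2 each). For stat3 the log2 fold change was -0.77 (SE 0.341, unadjusted p = 0.0638, adjusted p = 0.392, limma), a level 1.71-fold lower, with an interval from -1.61 to 0.06. It stayed negative without each library in turn but ranged from -1.25 without mutant replicate 2 to -0.29 without mutant replicate 1.

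Mutant replicate 1 was the lowest library for stat3 and il11ra, and also for il6st and clcf1. The genes stat3 and il11ra had the longest genomic spans of the 10, 76.8 kb and 91.1 kb. In the remaining genes, mutant replicate 1 deviated by -1.25 in log2 for clcf1, of 16.0 kb, which held about 10 reads there. It deviated by 0.31 for crlf1a (44.0 kb), -0.16 for il6st (33.0 kb) and 0.05 for socs3b (19.3 kb). For il11a, socs3a, il11b and lepb, of 5.8, 2.8, 2.3 and 2.0 kb, that deviation was -0.13, 0.07, 0.06 and 0.28. Over the eighth of tested genes with the longest spans, 2092 in number, mutant replicate 1 deviated from the gene mean by a median of -0.11 on the log2 scale, and the other 3 libraries by medians of 0.05 to 0.07. The median fold change, in log2, of those long genes was -0.10. Over the eighth with the shortest spans, which held il11b, lepb and socs3a, mutant replicate 1 deviated by a median of 0.13 and wild-type replicate 2 by -0.11, and the median fold change was 0.14 on that scale. The part of gene span in the values of these genes was not tested. The sum of the macrophage markers was also lowest in mutant replicate 1. Only 1 of the 13 marker lists had that library lowest, and it was picked out after the values were seen. The macrophage sum was 8669 and 9289 in the mutants and 11359 and 11061 in wild type, with 5 of 6 markers lower and none at 0. The markers csf1ra, mfap4, marco and c1qa were lowest in mutant replicate 1, at 132, 419, 2785 and 1301. The others differed: mpeg1.1 was highest in mutant replicate 1, at 3105, and spi1b was lowest in mutant replicate 2, at 870. Neutrophil markers were lower at 5 of 6 as well, with a sum of 2049 and 1817 against 2045 and 2497 and none at 0. Most of that sum was mmp9, at 1780 and 1390 against 1568 and 1918, with overlapping genotypes. Both mutants lay below both wild types for mpx, at 77 and 138 against 193 and 208. The same held for mmp13a, at 26 and 32 against 37 and 144, and for csf3r, at 11 and 108 against 116 and 167. Of all tested genes 25.7% had that order. The genotypes overlapped for lyz, at 10 and 26 against 41 and 16. The marker cpa5 was higher in both mutants, at 145 and 123 against 90 and 44. The part of these cells in the stat3 and il11ra values was not tested either.

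**Figure D2:**
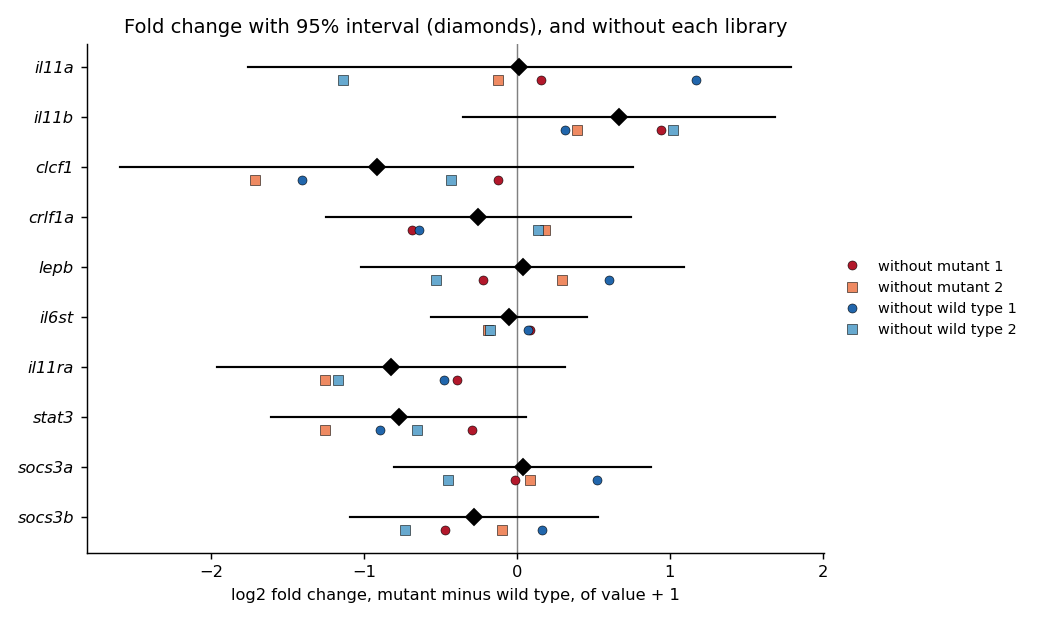
Log2 fold change, mutant minus wild type, of the normalised count plus 1 (x axis) for each gene (y axis). Diamonds are the estimate from all 4 libraries with its 95% interval, and coloured points the estimate without 1 library. Every interval crosses 0, and points on both sides of 0 appear for il11a, crlf1a, lepb, il6st, socs3a and socs3b.

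The genotypes overlapped at both feedback genes. The gene socs3a (ENSDARG00000025428, chromosome 3, 57423137 to 57425961) was at 8659 and 8063 in the mutants and at 11430 and 5798 in wild type. The mutants differed by 1.07-fold and lay between the wild types, which differed 1.97-fold. Genotype means were 8361 ± 421 and 8614 ± 3982 (SD, n = 2 each), and the log2 fold change was 0.04 (SE 0.344, adjusted p = 0.966), with an interval from -0.80 to 0.88. Its direction turned under quantile normalisation, to -0.18.

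The paralog socs3b (ENSDARG00000026611, chromosome 12, 34258139 to 34277465) was at 1810 and 1394 in the mutants and at 2637 and 1416 in wild type. Wild-type replicate 1 was high and the other libraries overlapped. In socs3b the log2 fold change was -0.28 (SE 0.332, adjusted p = 0.681), and 0.17 without wild-type replicate 1. The start of socs3b overlaps the start of pgs1, on the opposite strand, which was at 59 and 67 against 114 and 107. Over all libraries the ratio of socs3a to socs3b counts was steadier than either gene, at 4.78 and 5.78 in the mutants and 4.33 and 4.09 in wild type. Between the mutants alone socs3a was steadier than that ratio, which was higher in both mutants than in either wild type. Set against stat3, the count of socs3a gave a ratio of 19.4 and 9.26 in the mutants and 11.7 and 5.0 in wild type, with overlapping genotypes.

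At each ligand and feedback gene and at il6st, but not at stat3 or il11ra, the fold gap between the wild-type replicates exceeded the fold difference between the genotypes. The excess was small for il11b, at 1.64-fold against 1.59-fold, and for clcf1, at 2.0-fold against 1.89-fold. The share of all tested genes with such a gap was not counted. Wild-type replicate 1 was the highest library and wild-type replicate 2 the lowest for 3 of the 10 genes, il11a, lepb and socs3a. Of all tested genes 4.6% had that order, and 9.11% had the wild types on both sides of the mutants. The order was picked out after the values were seen. For these 3 genes the 2 mutant libraries differed by 1.22-fold, 1.44-fold and 1.07-fold, against 5.02-fold, 2.2-fold and 1.97-fold in wild type. In that order the mutants lie between the wild types, so the smaller mutant gap followed from how the genes were picked. Over all tested genes the median gap was 1.25-fold within each genotype. By summed level, 0 of the 13 cell type marker lists had wild-type replicate 1 highest and wild-type replicate 2 lowest. Of these sums, 6 had wild-type replicate 2 lowest. Such sums mostly follow their most abundant genes. How often other sets of genes have these orders was not counted. Those 6 marker lists included the cardiomyocyte list, with 6 of 6 markers higher in the mutant. Its summed level was 866343 and 705379 in the mutants versus 593929 and 412515 in wild type. The endothelial, erythrocyte, thrombocyte and atrium lists were also among the 6, with 7 of 7, 5 of 5, 4 of 4 and 2 of 2 markers higher. The atrium sums overlapped, at 59707 and 107516 against 102173 and 39457. The 6 lists also included the T and NK lymphocyte list, with 719 and 421 against 497 and 169 and 4 of 5 tested markers higher. Much of that sum was the gene nkl.2, deposited as nkl.1, at 580 and 241 against 213 and 44. The order of the libraries in the sum depended on that gene. Without nkl.2, that sum too had wild-type replicate 1 highest and wild-type replicate 2 lowest. Single markers with that order were lck, at 14 and 26 against 29 and 4, and zap70, at 40 and 45 against 70 and 25. The atrium marker myh6 also had it, at 4585 and 4293 against 5854 and 3276. The other markers of these 2 lists did not. Between the genotypes cd4-1 went the other way from nkl.2, at 26 and 43 against 128 and 76. In these counts, higher means a positive log2 fold change, however small. It was 0.06 for tnnc1a, 0.03 for vwf, and 0.02 for myh6 and zap70. For these markers and for gp1bb, mpl, nppa and lck the genotypes overlapped. Of all tested genes 26.6% were higher in both mutants than in either wild type, and no marker passed the adjusted threshold. No marker of these lists was at 0, and the part of these cells in the order of the libraries was not tested. The residual SD exceeded the median of all tested genes, 0.283, for 9 of the 10 genes, il6st being the exception.

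**Figure D3:**
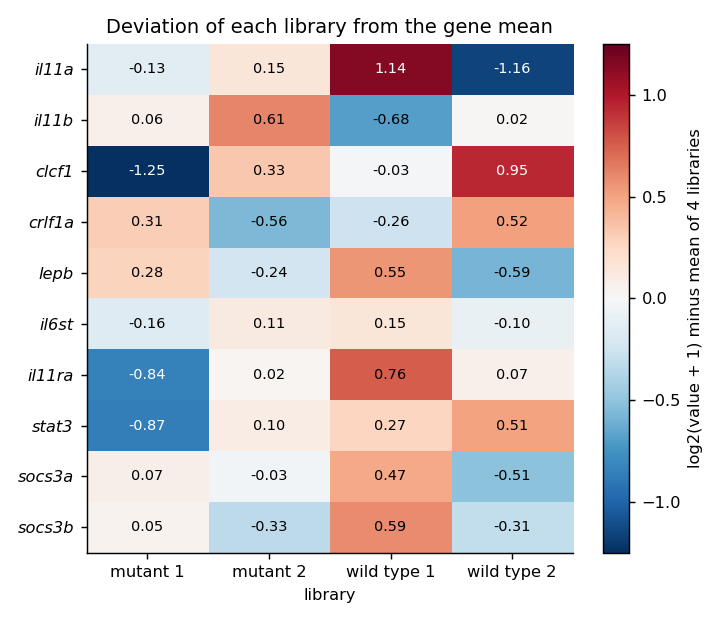
Deviation of each library (x axis) from the mean of the 4 libraries for each gene (y axis), in log2(value + 1), with colour and printed number giving the same value. For il11a wild-type replicate 1 is at 1.14 and wild-type replicate 2 at -1.16, and mutant replicate 1 is at -0.87 for stat3 and -0.84 for il11ra.

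The wider pathway was read through 6 lists of ligands, receptors, kinases, STAT factors, negative regulators and known STAT3 targets. Apart from the 10 genes they held 68 tested genes, 33 of them higher and 35 lower in the mutant. Their median log2 fold change was -0.03. Of these, 0 passed the adjusted threshold, and 5 reached an unadjusted p under 0.05, 2 higher and 3 lower, where 12.8% of all tested genes did. Both mutant values were below both wild-type values at 18 of the 68 and above them at 20, beside 25.7% and 26.6% of all tested genes.

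Outside the 10 genes, 4 ligands were tested and all 4 had negative log2 fold changes, with a median of -0.63. The neurotrophic cytokine gene cntf was at 113 and 200 in the mutants versus 176 and 178 in wild type (adjusted p = 0.748). The other 3 had low counts and are named after their values were seen. They were the leptin paralog lepa, at 6 and 2 against 13 and 22 (unadjusted p = 0.0392, adjusted p = 0.381, limma), m17, a gene of the leukaemia inhibitory factor type, at 18 and 31 against 35 and 70, and crlf1b at 15 and 11 against 17 and 12. The interleukin-6 gene il6 itself, also named after its values were seen, was at 3 and 2 against 9 and 23, below the mean of 10 needed for testing. The other untested ligand genes, named likewise, did not share that direction. The gene osm, deposited as si:ch73-47f2.1, was at 3 and 7 against 5 and 1, and ebi3 was at 3 and 7 against 3 and 2.

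Among 6 further receptors tested, 4 were lower and 2 higher, with a median of -0.21. The neutrophil receptor gene csf3r, which is also in the neutrophil marker list, was at 11 and 108 in the mutants versus 116 and 167 (adjusted p = 0.407), and mutant replicate 1 alone was far below the others. The leptin receptor gene lepr was at 636 and 800 against 817 and 885 (adjusted p = 0.562), and lifrb, a receptor gene of the leukaemia inhibitory factor type, was at 819 and 725 against 759 and 976 (adjusted p = 0.73). The interleukin-12 receptor gene il12rb2 was at 61 and 41 against 44 and 96 (adjusted p = 0.722).

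The 5 Janus kinase genes, which code for the enzymes that phosphorylate STAT factors, were 3 higher and 2 lower. The gene jak1 was at 3329 and 3808 in the mutants versus 4149 and 4262 (log2 fold change -0.24, adjusted p = 0.544). The gene jak2a was at 2771 and 1552 against 1354 and 1394 (0.59, adjusted p = 0.407), with mutant replicate 1 high. The remaining kinase genes named by the rule were jak2b, at 742 and 728 against 613 and 676, and tyk2, at 810 and 782 against 798 and 521.

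Among the 7 STAT genes other than stat3, 4 were higher and 3 lower. The interferon-responsive genes stat1a and stat1b lay on the side opposite to stat3. The first, stat1a, was at 3314 and 4094 in the mutants versus 2907 and 1637 (log2 fold change 0.76, adjusted p = 0.386). The second, stat1b, was at 677 and 2293 against 821 and 245, with overlapping genotypes (adjusted p = 0.407). The lymphocyte factor gene stat4 was at 1391 and 753 against 746 and 564, and stat6, which acts downstream of interleukin 4, was at 237 and 294 against 393 and 363 (-0.52, adjusted p = 0.395).

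Of 20 further negative regulators, 8 were higher and 12 lower, with a median log2 fold change of -0.08. The genes socs5a and socs5b, of the same suppressor family as socs3, were lower in both mutants. The former was at 32 and 136 against 177 and 230 (adjusted p = 0.386) and the latter at 126 and 165 against 238 and 200 (adjusted p = 0.399). Other genes of that family, named after their values were seen, went both ways. In both mutants socs2, socs6a and socs9 were also lower, while cishb, socs6b and socs1b were higher. The phosphatase gene ptpn2a was at 334 and 208 against 165 and 179 (adjusted p = 0.406), and ptpn11b at 88 and 270 against 268 and 427 (adjusted p = 0.403).

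Known STAT3 targets lay on both sides. Of 26 tested, 16 were higher in the mutant and 10 lower, at a median log2 fold change of 0.14. At an unadjusted p under 0.05 there were 4 of 26, near the 12.8% of all tested genes, and none passed the adjusted threshold. The list median was 0.048 under quantile normalisation, 0.080 without wild-type replicate 2 and 0.22 without mutant replicate 2. The survival kinase gene pim2 was at 906 and 804 in the mutants versus 495 and 407 (log2 fold change 0.93, SE 0.213, adjusted p = 0.381), and the hypoxia factor gene hif1aa was at 607 and 452 against 228 and 287 (1.03, SE 0.259, adjusted p = 0.381). On the other side, the mitotic survivin gene birc5a was at 95 and 152 against 218 and 236 (-0.91, SE 0.318, adjusted p = 0.381). The fourth, the hepcidin gene hamp, is named after its values were seen and was at 3 and 17 against 38 and 43. The interleukin-4 receptor gene il4r.1 (ENSDARG00000102583) was at 291 and 387 against 430 and 611 (adjusted p = 0.395).

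**Figure D4:**
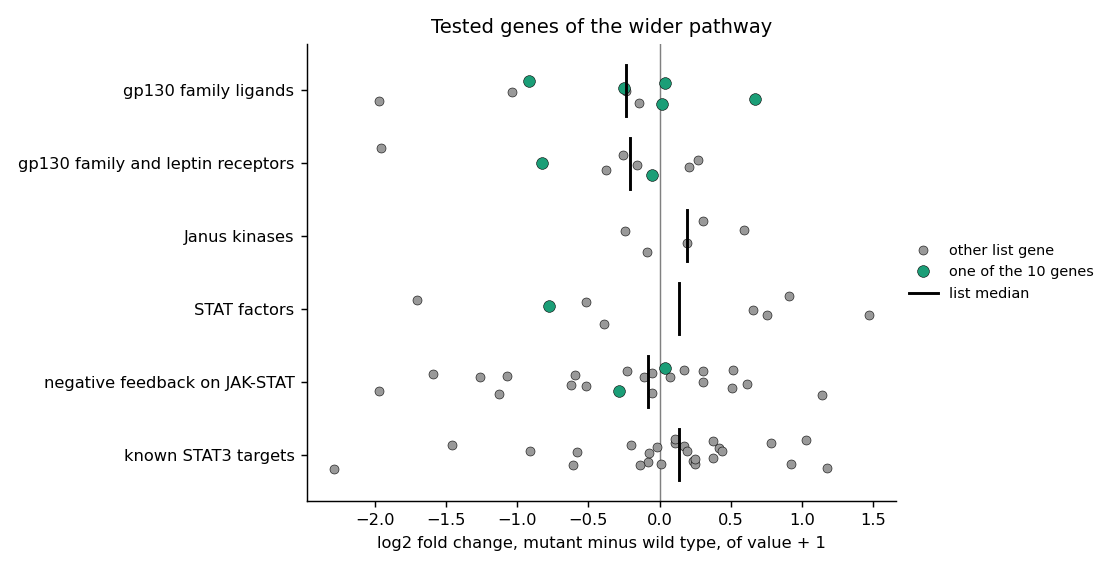
Log2 fold change, mutant minus wild type, of the normalised count plus 1 (x axis) for each tested gene of 6 pathway lists (y axis). Green points are the 10 genes, grey points the other genes, and black bars the list medians, which lie between -0.23 and 0.19 with the 10 genes included.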

How the data were processed

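The submitters' processing notes name DESeq2 1.6.2, STAR 2.4.0a and, from Subread, featureCounts 1.4.5-p1, with no settings given, and the builds GRCz10 and danRer10. Per the labels' protocols, the library kit was stranded and selected mRNA. The largest deposited coordinate is 78048911 on chromosome 4, which raises a doubt about the build, so coordinates are printed as deposited with the build unsettled. The deposited values are a whole-number score: from the spacing of low values, a gene's read count divided by a size factor by the authors and rounded. Recovered factors were 0.874 and 0.946 for the mutant replicates 1 and 2, and 0.952 and 1.32 for those of wild type. Values times factors give approximate reads; those of wild-type replicate 2 are not exact.

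The comparison used limma-trend (limma 3.58.1, R 4.3.3, with data read by the data.table package, version 1.17.8) on log2(value + 1), without a block, for 16730 genes with a mean of 10 or more. This scale understates changes of low genes. Each gene had 2 residual and 4.01 prior degrees of freedom. P-values are 2-sided, adjusted by Benjamini-Hochberg to 0.05. Ratio intervals are exact binomial (95%, scipy 1.17.1) on approximate reads and cover counting error only. Tables and figures used Python 3.11.15, pandas 2.3.3, numpy 2.4.6 and matplotlib 3.10.9. The fit was also run on simulated counts with the same spread for all genes and libraries, unlike the libraries here. No result here rests on that run.

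The 10 genes and all lists were chosen with earlier results of these data known. Of 163 list places, 150 matched by symbol or by the current symbol of the Ensembl ID. Beyond the 10 genes and ccn2a, named pathway genes are up to 4 per list with the smallest p and a mean of 50 or more. Other pathway genes are marked as chosen after their values were seen. Marker genes named singly fall outside that rule and were also named with their values known. The genes ssrp1a and pgs1 are named because they overlap clcf1 and socs3b. Alternatives were another pseudocount, no filter, quantile normalisation, limma voom, a replicate block and leaving out each library.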

Additional observations from a re-analysis of the deposited data

How the results depend on the processing

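No gene passed the adjusted threshold under any of the 9 alternatives run. The count at an unadjusted p under 0.05 ranged, without each library in turn, from 212 to 1452 on the higher side and from 236 to 1742 on the lower. For the 10 genes, 77 alternative values kept their direction and 13 turned it. Turned values were -0.016 for il11a with a pseudocount of 10 and -0.18 for socs3a under quantile normalisation. The other 11 came from leaving out a library, where the range was -0.19 to 0.088 for il6st, -1.13 to 1.17 for il11a, -0.53 to 0.60 for lepb, -0.69 to 0.18 for crlf1a, -0.45 to 0.53 for socs3a and -0.73 to 0.17 for socs3b. The cause was not tested. The lone library of a genotype is then assumed to vary like the other genotype. For stat3, il11ra, il11b and clcf1 the direction stayed the same in each alternative. The replicate numbers are shared by the genotypes, but nothing in the labels pairs the samples, and deviations of same-numbered samples had a correlation of 0.004. With the replicate block 0 genes passed, 1205 were higher and 1450 lower at an unadjusted p under 0.05, and stat3 had an unadjusted p of 0.0249 and an adjusted p of 0.268. Over the STAT list with stat3 the median log2 fold change was 0.13, and it turned to -0.23 without mutant replicate 2 and to -0.066 when wild-type replicate 2 was left out. The negative regulator median, with both socs3 genes, was -0.08 and turned to 0.041 without mutant replicate 2. The medians of the other 4 lists kept their sign under quantile normalisation and without each library. Depth limits clcf1, il11ra and il11b most.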
